A study of Mus musculus with 6 samples.

Results

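The genes described here are the T cell receptor gene segments, taken as all gene rows whose annotated biotype is a T cell receptor V, D, J or C gene. There were 226 such rows among 41325, made up of 144 V, 4 D, 70 J and 8 C rows. By name, 160 belonged to Tra (alpha chain), 39 to Trb (beta), 10 to Trd (delta) and 15 to Trg (gamma), and 2 V rows, B230359F08Rik and C920008G01Rik, carried no locus in their name. Their reads were compared between 3 bulk RNA-seq libraries of an elemental diet group and 3 of a saline control group. All mice were ICR females aged 10 weeks at purchase and then habituated for 7 days. All were injected intraperitoneally with 5-FU, an antimetabolite that blocks DNA synthesis, at 20 mg/kg/day on 2 days a week for 3 weeks, so no library shows these genes without 5-FU. The elemental diet group received Elental, a liquid formula based on amino acids, by mouth at 1.6 kcal in 0.8 mL per day, and the control group received as much saline, both in 2 portions a day on 5 days a week for 3 weeks. The comparison asks which receptor transcripts differed with the diet. The tissue label is salivary gland, and ICR is an outbred stock. Each group is recorded with 3 mice, but whether the 3 libraries of a group are 3 different animals is left unsaid in the labels. The p-values then reflect no more than the spread among these libraries, which may be technical.

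T cells recognise antigen through a receptor made of an alpha and a beta chain or of a gamma and a delta chain, held at the surface by the CD3 subunits. Each T cell assembles its variable exon by joining a V, an optional D and a J segment of the locus in its DNA, and the transcript is then spliced to a constant (C) exon. The C genes are therefore read in every transcript of a chain, while each V or J gene is read in the cells that chose it. In bulk RNA fewer cells of a type and less RNA per cell cannot be told apart.

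The libraries held 29053287 to 33073125 reads assigned to genes, of which the receptor rows took 1525 to 1946 reads with elemental diet and 7851 to 9627 with saline. Between 88 and 92 of the 226 rows had a read in each elemental diet library, against 172 or 173 in each saline library. Values are given as reads per library or as CPM, reads relative to library size after TMM scaling, and a count of 0 allows up to 3 reads. Among all genes, reads that the authors classed as intron made up 8.39% to 8.82% with elemental diet and 13.7% to 14.4% with saline, while in the receptor rows they made up 7.30% to 8.46% and 4.82% to 5.55%. Of the salivary markers, Smgc and Pip had no read in any library and Aqp5, the acinar water channel, had 4 reads under elemental diet and 2 under saline. The tissue label and the extraction text differ, since the latter speaks of RNA isolated out of keratinocytes or fibroblasts.

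Every elemental diet library lay below every saline library in 104 of the 199 receptor rows that had a read, and above in 6, with 89 overlapping. The other 27 rows had no read, and 84 rows in all had none with elemental diet and 31 none with saline. The background was high: over all 28895 rows with a read, 30.8% lay wholly below and 26.7% wholly above. In the edgeR quasi-likelihood test fitted to all genes, 42 receptor rows had enough reads to be tested, 35 were lower with elemental diet, 2 were higher, Tcrg-C1 and Trdv2-2, and 5 were not called, among them Trdc and Tcrg-C3. In the same fit 40.2% of the 18303 genes tested were called lower and 38.0% higher. Of the 42 tested rows 28 passed the filter on low reads through the saline libraries alone, so a call was close to fixed for them and nothing is read from the count. The C genes, all 8 of which passed in both groups, carry the comparison. Counted from unique reads alone, 29 receptor rows were tested, 25 were lower and 1 was higher, all of them among those called from total reads (background 41.1% and 38.8%).

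Summed over each locus, the alpha and beta rows were several-fold lower with elemental diet and the gamma and delta rows were not. Tra rows summed to 11.5 ± 1.25 CPM in the elemental diet group and 76.3 ± 11.8 in the saline group (SD, n = 3 libraries here and throughout), 6.63-fold lower. Trb rows summed to 23.1 ± 1.83 and 152 ± 20.7 CPM, 6.60-fold lower. Both sets of libraries were separate, with the highest elemental diet library far under the lowest saline library. For Trd the sums were 7.49 ± 0.450 and 6.94 ± 0.942 CPM, and for Trg 23.0 ± 3.89 and 22.6 ± 2.85 CPM, and the groups overlapped in both. With 3 libraries against 3 an exact two-sided permutation test cannot go below p = 0.1, so sums and ratios over several rows are given with their spread and without a p.

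**Figure D1:**
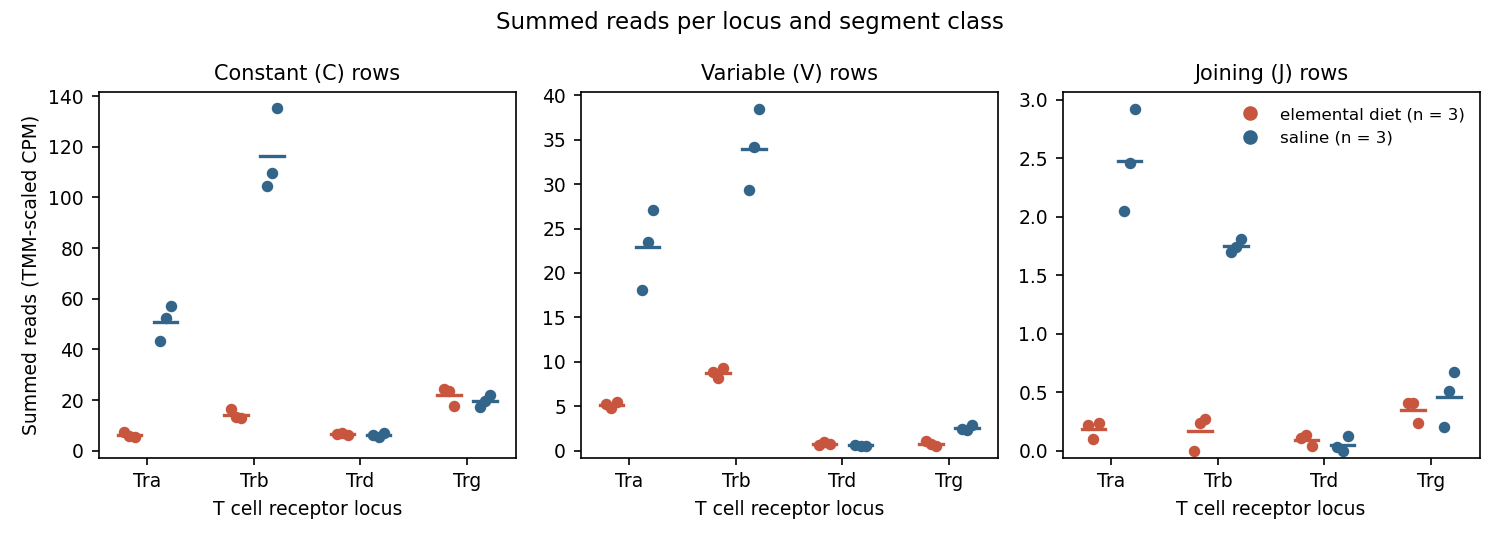
Summed TMM-scaled CPM of the C, V and J rows of each receptor locus, with one point per library and a bar at the mean of the 3 libraries of a group. The vertical scale differs between panels. For Tra and Trb the elemental diet points lie under the saline points in every panel, and for the C rows of Trd and Trg the groups overlap.

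The constant genes of the alpha-beta receptor fell about equally. Trac, the constant region of the alpha chain (GRCm38, chr14:54220521-54224206, plus strand), had 202, 167 and 137 reads in the elemental diet libraries and 1506, 1742 and 1852 in the saline libraries. Every saline library thus held several times the reads of any elemental diet library, and the level was 6.15 ± 1.11 CPM against 50.9 ± 6.85. The log2 fold change was -3.05 (SE 0.14, edgeR adjusted p = 3.65e-09). Trbc1, the first of the beta constant genes (chr6:41538218-41539881), had 175, 155 and 127 reads against 1405, 1371 and 1689 (log2 fold change -3.002, SE 0.13, adjusted p = 2.33e-10). Trbc2, the second (chr6:41546730-41548352), had 270, 237 and 200 against 2222, 2284 and 2706 (log2 fold change -3.06, SE 0.12, adjusted p = 1.97e-09). The groups were apart for each gene, and Trac, Trbc1 and Trbc2 passed the test in all 15 alternative analyses run for them.

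Trbc1 and Trbc2 are near-identical copies, which bears on how their reads can be split. Their first exons differ at 1 of 375 bases and share an identical run of 259 bases, longer than the 75-base reads. The stretch around that base runs in transcript direction from base 220 to base 299 of the GENCODE M21 transcripts (GRCm38), with the differing base in capitals.
Trbc1: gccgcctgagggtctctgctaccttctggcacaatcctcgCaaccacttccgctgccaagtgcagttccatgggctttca
Trbc2: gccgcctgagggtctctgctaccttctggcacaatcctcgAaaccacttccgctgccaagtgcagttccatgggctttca
Trbc1 took 39.2% ± 0.360 of the Trb constant reads with elemental diet and 38.2% ± 0.638 with saline, a small gap without overlap. Only 71.3% and 68.1% of Trbc1 reads, and 64.5% and 66.3% of Trbc2 reads, were unique to the gene, so the split between them is uncertain while their sum, 14.1 ± 1.92 against 117 ± 16.4 CPM, is not affected by it. All Trac reads were unique.

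The CD3 subunits, which assemble with either kind of receptor, were lower by a like amount. Cd3d, Cd3e, Cd3g and Cd247 together had 726, 640 and 593 reads in the elemental diet libraries and 5926, 6208 and 6502 in the saline libraries, 7.79-fold lower in CPM, against 8.25-fold for the summed alpha-beta constant genes. The alpha-beta constant reads per CD3 read were 0.849 ± 0.0583 under elemental diet against 0.899 ± 0.0537 under saline, with overlap between groups. Counting all 8 constant genes, the ratio to CD3 was 2.05 ± 0.223 and 1.04 ± 0.0590, with the elemental diet libraries above. Of 25 genes of the receptor complex, its coreceptors and T cell identity, 24 fell and 1 rose, with a median log2 fold change of -2.93 beside -0.08 over all genes tested, of which 40.2% fell. Cd2, an adhesion receptor, fell by 3.03 on the log2 scale, Lck, the kinase that starts receptor signalling, fell by 2.40, Cd6, a coreceptor-like surface protein, fell by 3.15 and Cd3e fell by 2.92. Ubash3a, which dampens receptor signalling, was the gene that rose, at 22.7 ± 0.909 CPM against 15.3 ± 1.44, a log2 fold change of 0.57 (SE 0.09, adjusted p = 5.17e-05). Among the coreceptors, Cd8a fell by 3.58 and Cd4 fell by 2.61 on the log2 scale. These coreceptors were named with their values known.

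The constant genes of the gamma-delta receptor did not fall together. Trdc, the delta constant region (chr14:54142851-54148868), had 182, 202 and 161 reads under elemental diet and 220, 180 and 232 under saline. Its groups overlapped and it did not pass the test (log2 fold change 0.07, SE 0.15, adjusted p = 0.671), and its sign turned without saline library 2 (-0.04). Only 14.1% of its reads with elemental diet and 8.23% with saline were unique, and the row overlaps Gm43434, an antisense gene on the opposite strand, and Trdv5. For the authors' counting, use of strand not being stated, reads of overlapping rows on opposite strands cannot be told apart. Unique Trdc reads were 20, 32 and 25 against 19, 11 and 22, also overlapping (log2 fold change 0.81, SE 0.37, adjusted p = 0.0582), and Gm43434 itself had 35 reads under elemental diet and 86 under saline.

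Of the 4 gamma constant genes 1 rose, 2 fell and 1 did not pass the test. Tcrg-C1 (chr13:19214103-19217024) had 381, 387 and 277 reads under elemental diet and 217, 234 and 223 under saline. Each elemental diet library held more reads than any saline library, at 12.7 ± 1.64 CPM against 6.71 ± 0.399. Its log2 fold change was 0.92 (SE 0.13, adjusted p = 1.75e-05). Tcrg-C4 (chr13:19344558-19352756) went the other way, with 43, 44 and 26 reads against 136, 151 and 185 (log2 fold change -1.78, SE 0.24, adjusted p = 9.68e-06). Both calls held in all 15 alternatives. Tcrg-C2 (chr13:19304649-19307551, minus strand) had 105, 115 and 71 against 147, 154 and 198 reads and passed narrowly (log2 fold change -0.50, SE 0.20, adjusted p = 0.0360). Its call was lost without elemental diet library 3 (adjusted p = 0.142), without saline library 2 (0.0556) or without saline library 3 (0.200). Tcrg-C3 (chr13:19260884-19263528) had 132, 145 and 82 against 98, 116 and 108 reads and did not pass (log2 fold change 0.43, SE 0.21, adjusted p = 0.0713), but passed without elemental diet library 3 (adjusted p = 0.00959).

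**Figure D2:**
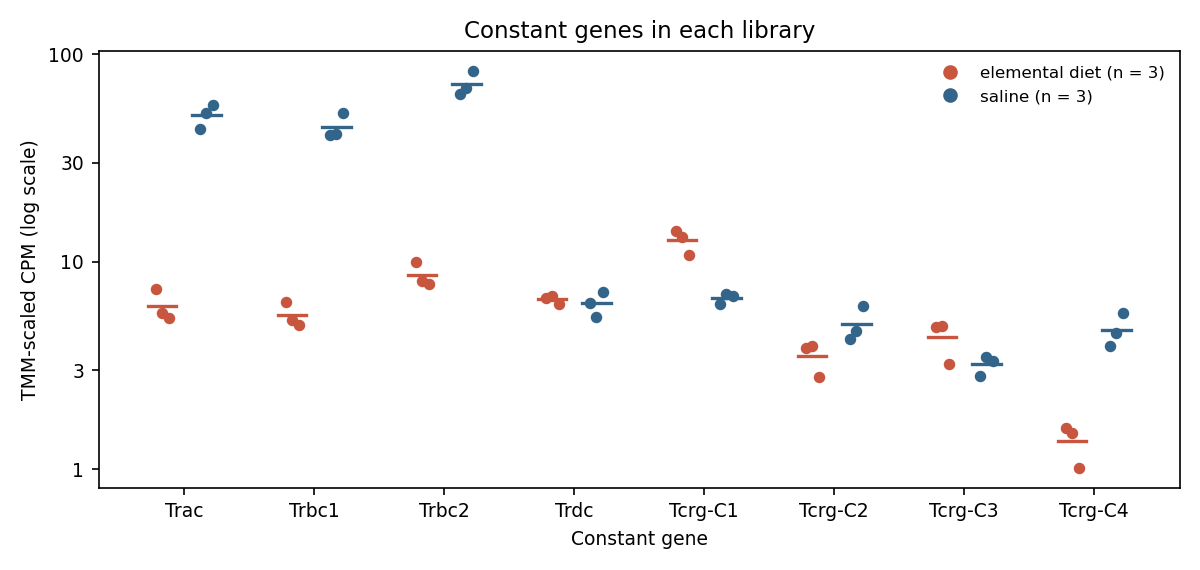
TMM-scaled CPM of the 8 constant genes on a log axis, with one point per library and a bar at the group mean. Trac, Trbc1 and Trbc2 are lower in every elemental diet library, Trdc overlaps, Tcrg-C1 is higher and Tcrg-C4 lower with elemental diet.

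The gamma constant genes are printed here because their likeness sets how far reads can be told apart. These are the first 100 bases of the first exon in transcript direction (GENCODE M21, GRCm38), with capitals at bases that differ from Tcrg-C1.
Tcrg-C1: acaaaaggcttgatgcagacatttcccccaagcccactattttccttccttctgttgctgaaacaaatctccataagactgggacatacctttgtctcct
Tcrg-C2: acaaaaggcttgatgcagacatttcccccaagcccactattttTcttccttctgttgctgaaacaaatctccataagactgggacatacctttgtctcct
Tcrg-C3: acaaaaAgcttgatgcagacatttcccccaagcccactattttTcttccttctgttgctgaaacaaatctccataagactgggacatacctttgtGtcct
Tcrg-C4: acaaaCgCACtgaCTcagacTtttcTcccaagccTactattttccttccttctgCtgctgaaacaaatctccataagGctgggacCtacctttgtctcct
Over the 330 bases of the first exon Tcrg-C1 differs from Tcrg-C2 at 9 bases, from Tcrg-C3 at 13 and from Tcrg-C4 at 59. Even so, 96.9% of Tcrg-C1 reads with elemental diet and 96.1% with saline were unique, and for Tcrg-C2 and Tcrg-C3 the unique shares lay between 92.1% and 94.99%. On unique reads alone Tcrg-C1 still rose (log2 fold change 0.89). As a share of gamma constant reads, Tcrg-C1 took 58.1% ± 2.41 with elemental diet and 34.4% ± 2.77 with saline, Tcrg-C4 took 6.19% ± 0.430 and 23.9% ± 1.75, and Tcrg-C2 took 16.0% ± 0.551 and 25.3% ± 2.19. These shares do not depend on scaling between libraries, and the groups were apart in each. Levels are not compared between these genes, because the files give Tcrg-C3 an exon length of 519 bases and treat the other 7 constant genes as 1 unbroken exon of 1623 to 8199 bases.

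Read against each other within a library, gamma-delta constant reads were more than alpha-beta constant reads with elemental diet and far fewer with saline. These reads are not corrected for length, and the listed lengths of the constant genes differ. The ratio is therefore compared between groups only, and does not show which receptor had more transcript. The ratio was 1.30, 1.60 and 1.33 in the elemental diet libraries and 0.159, 0.155 and 0.151 in the saline libraries. No library came near the other group, and the mean ratio was 9.09-fold higher with elemental diet (1.41 ± 0.163 against 0.155 ± 0.00398). With the gamma genes alone in the numerator the ratio was 1.08 ± 0.136 and 0.117 ± 0.00362. The summed gamma-delta constant genes overlapped between groups, at 28.5 ± 3.795 and 25.9 ± 2.84 CPM, and the summed alpha-beta constant genes did not, at 20.3 ± 3.03 and 167 ± 22.5.

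**Figure D3:**
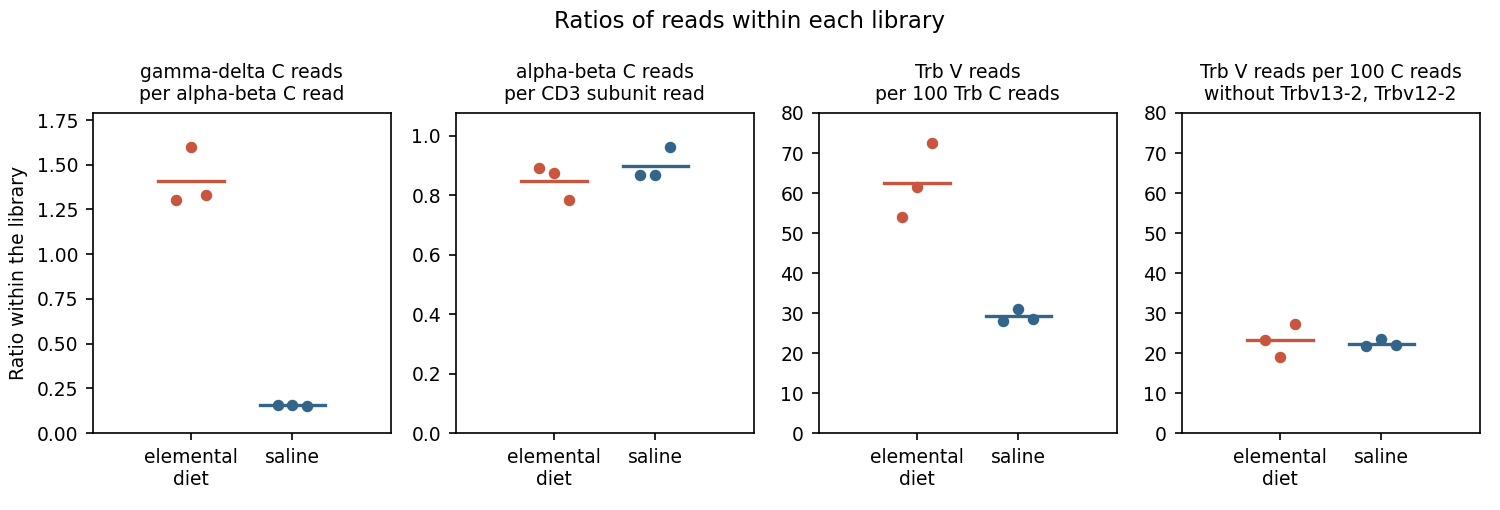
Ratios of reads within each library, with one point per library and a bar at the group mean. From left to right are gamma-delta per alpha-beta constant read (1.41 against 0.155), alpha-beta constant per CD3 subunit read (0.849 against 0.899), and Trb V reads per 100 Trb C reads with all V rows (62.6 against 29.2) and without Trbv13-2 and Trbv12-2 (23.2 against 22.4).

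The V segments of the gamma locus were lower in sum, while the sum of its constant genes overlapped between groups. Trg V rows summed to 29, 22 and 12 reads with elemental diet and 83, 77 and 95 with saline, 0.760 ± 0.298 against 2.54 ± 0.331 CPM, and per 100 constant reads they gave 3.401 ± 0.898 and 13.0 ± 1.10. The groups were apart on both scales. Trgv2 (chr13:19336573-19337167, minus strand) fell, with 9, 14 and 10 reads against 42, 42 and 54 (log2 fold change -1.77, SE 0.35, adjusted p = 0.000393), and so did Tcrg-V1 (chr13:19339989-19340454), with 7, 5 and 2 against 14, 26 and 32 (log2 fold change -2.06, SE 0.54, adjusted p = 0.00345). Both passed the filter through saline alone. The locus is laid out as units of V, J and C segments, and each V and J row was assigned to the next constant gene downstream on its strand. In the Tcrg-C1 unit, whose constant gene rose, the 4 V rows Tcrg-V4 to Tcrg-V7 had 14 reads under elemental diet and 35 under saline, and overlapped. That came to 1.34 V reads per 100 Tcrg-C1 reads with elemental diet and 5.19 with saline. Trgj1, the J segment of the same unit, had 6, 10 and 6 reads against 1, 11 and 14. In the Tcrg-C4 unit, where V and C were both lower, Tcrg-V1 gave 12.4 and 15.3 reads per 100 Tcrg-C4 reads. Trgv2 gave 11.3 and 27.7 per 100 Tcrg-C2 reads, and Tcrg-V3 had 2 and 10 reads beside 359 and 322 of Tcrg-C3. All 4 V rows of the Tcrg-C1 unit overlap the antisense gene Gm31887.

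Delta V and J segments had few reads. Trdv2-2 (chr14:53960944-53961602) had 12, 27 and 14 reads under elemental diet and 11, 10 and 6 under saline, and was called higher (log2 fold change 1.24, SE 0.47, adjusted p = 0.0275). Its call was lost without elemental diet library 2 (adjusted p = 0.166), without saline library 2 (0.0603) or without saline library 3 (0.104), and on exon reads alone (0.363). Unique reads came to 23 with elemental diet and 4 with saline. The row overlaps the antisense gene Gm43647, which had 5 reads under elemental diet and 121 under saline. Its closest copy, Trdv2-1 (chr14:53946073-53946660), had no read in any library. The last 80 bases of the V exon of the pair are shown in transcript direction (GENCODE M21, GRCm38), with the 4 differing bases in capitals, which lie at the end that joins the D or J segment.
Trdv2-1: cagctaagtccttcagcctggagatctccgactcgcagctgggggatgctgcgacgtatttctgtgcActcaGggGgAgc
Trdv2-2: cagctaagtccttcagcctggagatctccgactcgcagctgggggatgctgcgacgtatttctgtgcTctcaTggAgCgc
Trdv1 (chr14:53881612-53882217) had no read under elemental diet and 5, 4 and 8 under saline, at least 4.64-fold lower when 0 is set to 3 reads over the group. Trdv4 had 6 reads under elemental diet and 8 under saline, and Trdv5 also 6 and 8. Trdj1 had 4 and 5 reads and Trdj2 4 and 0. None of the reads of Trdv4, Trdj1 and Trdj2 was unique. Trdv4 and Trdj1 overlap the antisense gene Gm30275, which had 55 reads under elemental diet and 81 under saline, and Trdj2 overlaps Gm43434. These reads can therefore not be given to the delta rows with certainty. Trdd1, Trdd2, Trbd1 and Trbd2, the D segments, are 11 to 16 bases long and had no read in any library.

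Of the 22 Trb V rows 17 lay wholly below saline, 3 overlapped and 2 had no read, where 30.8% of all rows with a read lay wholly below. Of the 16 tested, 13 passed the filter through saline alone, so their calls were close to fixed and their values are a description; Trbv1, Trbv12-2 and Trbv13-2 passed in both groups. Trbv29 (chr6:41271394-41271881) had 3, 3 and 6 reads under elemental diet and 65, 65 and 93 under saline (log2 fold change -3.89) and passed through saline alone. Trbv19 (chr6:41178375-41179048) had 11, 8 and 3 against 83, 119 and 110 reads (log2 fold change -3.53) and Trbv31 (chr6:41557691-41558452, minus strand) 6, 5 and 7 against 73, 59 and 69 (-3.16), both likewise through saline alone. Trbv1 (chr6:40891229-40891885) had 11, 12 and 14 against 89, 95 and 126 (log2 fold change -2.77, SE 0.30, adjusted p = 1.02e-06). In each of these the saline libraries held at least several times the reads of any elemental diet library.

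Trbv13-2, a V gene used by many invariant NKT cells among other T cells, also fell. It had 113, 134 and 131 reads in the elemental diet libraries and 194, 241 and 233 in the saline libraries, lower without overlap. Its level was 4.61 ± 0.486 CPM against 6.67 ± 0.924, a log2 fold change of -0.53 (SE 0.16, adjusted p = 0.00874). Over the 15 alternatives run for it the log2 fold change ranged from -0.97 to -0.45. The gap between its fold change and that of other V rows was not tested. It thus accounted for 52.7% ± 4.83 of all Trb V reads with elemental diet and 19.6% ± 1.37 with saline. In the authors' deposited TPM, which is corrected for length, Trbv13-2 stood at 19.1 ± 2.44 and 46.1 ± 8.41 and Trbv13-1 at 3.58 ± 2.28 and 26.0 ± 6.36. The fall of Trbv13-2 was thus larger in TPM than in CPM, and why was not tested. Trbv12-2 (chr6:41118851-41119364), the next V row upstream of Trbv13-2 at a distance of 2031 bases, had 23, 32 and 17 reads against 35, 38 and 54 and did not pass (log2 fold change -0.54, SE 0.33, adjusted p = 0.151). It was singled out with its values known. Trbv13-1 and Trbv13-3, the other members of the Trbv13 family, had log2 fold changes of -2.34 and -3.04 and passed through saline alone.

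The family is printed to show that Trbv13-2 can be told from its relatives at the read length. These are the last 110 bases of the V exon in transcript direction (GENCODE M21, GRCm38; Trbv13-1 chr6:41116007-41116468, Trbv13-2 chr6:41121396-41121832, Trbv13-3 chr6:41130147-41130585), with capitals at bases that differ from Trbv13-2.
Trbv13-2: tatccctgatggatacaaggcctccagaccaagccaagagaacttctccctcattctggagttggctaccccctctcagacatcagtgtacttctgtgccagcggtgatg
Trbv13-1: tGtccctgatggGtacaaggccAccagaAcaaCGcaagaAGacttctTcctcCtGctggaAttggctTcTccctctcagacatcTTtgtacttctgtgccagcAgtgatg
Trbv13-3: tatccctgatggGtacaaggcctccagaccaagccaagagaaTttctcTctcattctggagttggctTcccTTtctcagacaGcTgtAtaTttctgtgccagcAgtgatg
The printed stretch of Trbv13-1 differs at 17 bases and that of Trbv13-3 at 11. All reads of Trbv13-1, Trbv13-2 and Trbv13-3 were unique. Reads that the authors classed as intron were 31.3% ± 2.31 of Trbv13-2 reads with elemental diet and 14.1% ± 4.74 with saline, against 9.07% ± 6.73 and 5.28% ± 0.804 over the other Trb V rows. Summed over the libraries of a group, they were 23.1% and 15.2% in Trbv13-3, 10.5% and 3.38% in Trbv13-1, and 19.4% and 23.6% in the neighbouring Trbv12-2. A high share was therefore not particular to Trbv13-2. The files list the row as 1 exon, and which bases were counted as intron was not stated. On exon reads alone the share of Trbv13-2 still differed by 27.6 percentage points, against 33.0 on all reads.

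**Figure D4:**
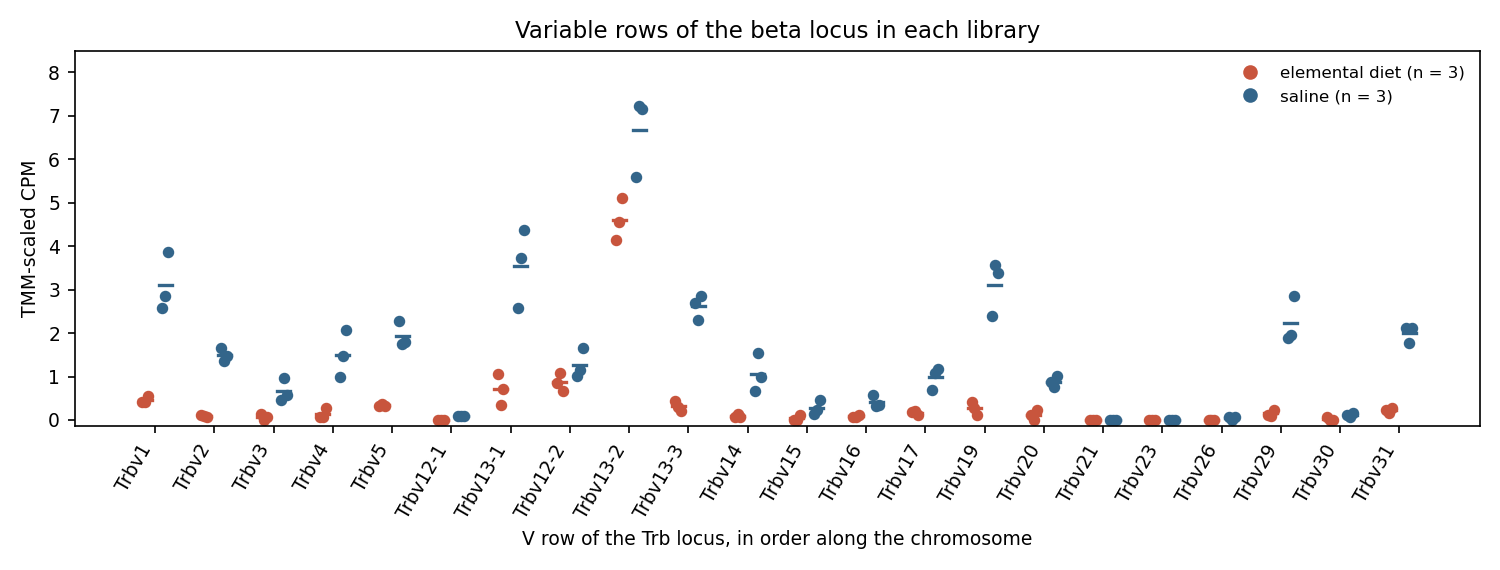
TMM-scaled CPM of the 22 V rows of the beta locus, in order along the chromosome, with one point per library and a bar at the group mean. Trbv13-2 is the highest row in the elemental diet libraries, at 4.61 CPM against 6.67 with saline, and the points of Trbv12-2 overlap.

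In the beta locus there were 62.6 ± 9.33 V reads per 100 Trb C reads with elemental diet and 29.2 ± 1.67 with saline. Without Trbv13-2 and Trbv12-2, a choice made after seeing the data, the figures were 23.2 ± 4.04 and 22.4 ± 0.962. Those rows were left out because they differed least, so the ratio had to move in this direction and nothing is read from it. The make-up of V reads was narrower: the inverse Simpson index, the number of equally common V genes that would give the same evenness, was 3.35 ± 0.531 with elemental diet and 10.9 ± 0.439 with saline. At an equal depth of 237 reads the expected number of Trb V rows with a read was 16.0 ± 1.73 and 18.1 ± 0.387.

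The alpha V array was read thinly across many rows. Of 108 Tra V rows 100 had a read, but 28 had none with elemental diet and 10 none with saline. Only 14 could be tested, 12 of them through saline alone. Those 12 were the rows called lower and the other 2 were not called. The calls of the 12, among them the 4 given next, were therefore close to fixed, and their values are a description. Trav3-3 (chr14:53665929-53666506), the row with the most reads in the saline libraries, had 7, 4 and 4 under elemental diet and 34, 57 and 54 under saline (log2 fold change -2.96, SE 0.44, adjusted p = 2.63e-05). Trav14d-3-dv8, which can join to alpha or delta J segments, had 3, 5 and 3 against 39, 22 and 45 (log2 fold change -2.95), and Trav6n-6 6, 2 and 4 against 18, 28 and 23 (-2.20). Trav13n-4 had 6, 6 and 5 against 11, 21 and 23 and passed (log2 fold change -1.39, adjusted p = 0.0209), but not without elemental diet library 2 (adjusted p = 0.0613) or 3 (0.0573) or saline library 2 (0.0725) or 3 (0.0945). Trav9-4 and Trav21-dv12 had no read with elemental diet and 48 and 45 with saline, at least 13.1-fold and 12.3-fold lower when 0 is set to 3 reads over the group; they were named after their values were seen.

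In some V rows the groups overlapped or elemental diet was higher. The alpha rows Trav17 (chr14:53806639-53807115), with 9, 7 and 6 reads against 5, 5 and 8, and Trav4n-4, with 8, 11 and 5 against 9, 10 and 1, overlapped, as did B230359F08Rik, of no named locus, with 5, 3 and 11 against 11, 7 and 8. Trav7n-6 (4, 6 and 3 against 0, 1 and 0 reads), Trav7-6 (4, 1 and 3 against 0, 0 and 1) and C920008G01Rik (2, 8 and 5 against 0, 0 and 2) lay wholly above saline in CPM, though the last of these and Trav7-6 tied with saline in reads. None of these 6 rows reached the filter, and they were picked out after their values were seen. Trav4n-4, Trav7n-6 and C920008G01Rik had no unique read, and every 75-base stretch of each recurs in another receptor row. Of the stretches of Trav7-6, 29.0% recur. The assignment of these reads to single rows is therefore uncertain, and the rows higher with elemental diet are not counted as separate results. In sum, Tra V rows stood at 85.7 ± 15.1 reads per 100 Trac reads with elemental diet and 44.7 ± 2.99 with saline, so V reads were 4.43-fold lower in CPM where Trac was 8.28-fold lower. At an equal depth of 139 reads, 46.8 ± 1.20 Tra V rows were expected to have a read under elemental diet against 60.1 ± 1.36 under saline, and the inverse Simpson index was 39.4 ± 1.34 and 52.1 ± 2.79. On unique reads the difference in rows shrank from -13.3 to -3.16, and that in the index was 0.72, with elemental diet higher.

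Much of the alpha V array consists of near-identical copies, which limits any statement on single Tra V genes. The mouse locus carries V clusters copied along the chromosome, with a d or an n in the name of the copies. Trav6-6 and Trav6d-6 show the extreme: their 344-base transcripts are identical, and the last 75 bases, the length of a read, run as follows in transcript direction (GENCODE M21, GRCm38), with no capitals because no base differs.
Trav6-6: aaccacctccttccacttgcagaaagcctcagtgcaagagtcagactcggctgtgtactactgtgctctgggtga
Trav6d-6: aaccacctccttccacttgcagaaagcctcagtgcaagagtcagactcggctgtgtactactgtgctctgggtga
Trav6-6 (chr14:53516929-53517366) had 5, 4 and 2 reads against 7, 14 and 10, and Trav6d-6 (chr14:52821922-52822359) 1, 3 and 2 against 7, 11 and 14, so the assignment of these reads between the pair is uncertain. In 36 of the 144 V rows of all loci every 75-base stretch recurred in another receptor row, and none of the 36 had a unique read. In 45 V rows no stretch recurred, and the median unique share of those with reads was 100%. Summed by class, the 34 d copies were 4.26-fold lower, the 28 n copies 3.72-fold and the 46 rows with neither letter 5.14-fold.

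**Figure D5:**
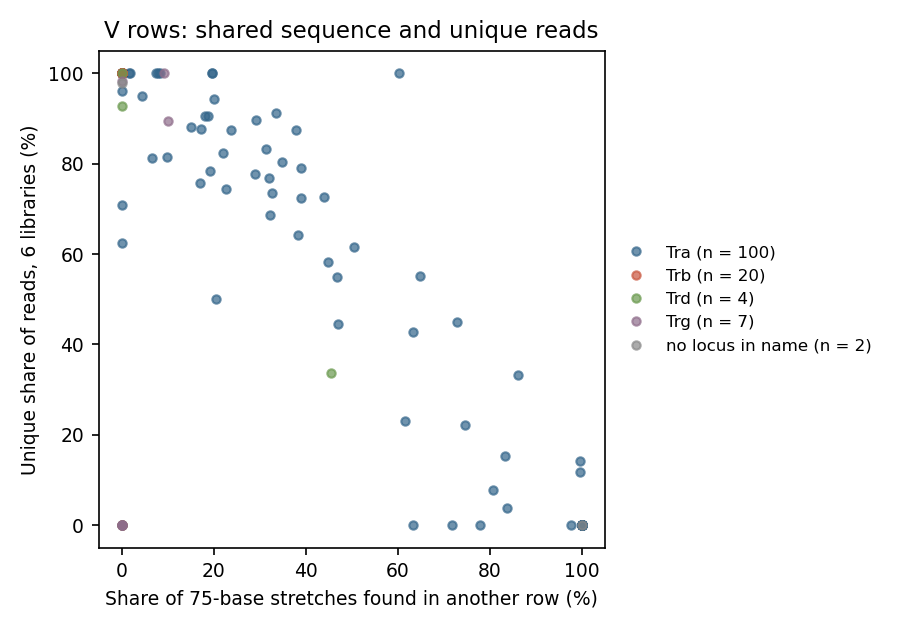
Unique share of reads over all 6 libraries for the 133 V rows with a read, against the share of 75-base stretches of the transcript that occur in another receptor row. Rows at the right edge share every stretch and sit at 0% unique, rows at the left edge share none and mostly sit at 100%, and the 7 rows at the lower left overlap another annotated gene.

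J segments were lower in both alpha and beta loci at very low counts. Tra J rows summed to 6, 3 and 6 reads with elemental diet and 71, 82 and 95 with saline, and Trb J rows to 0, 7 and 7 against 59, 58 and 59. The J rows are 46 to 66 bases long, shorter than a read. Traj31 had no read under elemental diet and 3, 4 and 9 under saline, Traj39 none against 1, 3 and 8, and Traj42 none against 2, 6 and 3. Trbj2-3 had 0, 2 and 0 against 8, 19 and 12 reads, and Trbj1-3 0, 1 and 3 against 10, 8 and 11. Trbj2-1 was the J row with enough reads to be tested, with 0, 0 and 2 against 14, 13 and 10 (log2 fold change -3.70, SE 0.89, adjusted p = 0.00170), and it passed the filter through saline alone. Per 100 constant reads the Trb J rows gave 1.31 ± 1.15 and 1.52 ± 0.154 and overlapped, a log2 ratio of -0.21 that turned to 0.37 without elemental diet library 1, which had no Trb J read. The Tra J rows gave 3.05 ± 1.29 and 4.85 ± 0.242.

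The J segments encode the end of the variable domain, where most carry a short conserved motif. Some of the rows with the most reads are printed whole (GENCODE M21, GRCm38; Traj31 chr14:54187895-54187951, Trbj2-3 chr6:41543223-41543271, Trbj2-1 chr6:41542754-41542803, Trgj1 chr13:19210343-19210402), with capitals at the motif, searched as the codons TTN, GGN and NNN followed by GG.
Traj31: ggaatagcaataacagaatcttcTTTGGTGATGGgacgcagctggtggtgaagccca
Trbj2-3: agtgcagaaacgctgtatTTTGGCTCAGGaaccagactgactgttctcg
Trbj2-1: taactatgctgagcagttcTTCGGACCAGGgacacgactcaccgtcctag
Trgj1: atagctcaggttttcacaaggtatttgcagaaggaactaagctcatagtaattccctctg
Searched on both strands, the motif occurred in 57 of the 70 J rows: 44 of 51 Tra, 11 of 13 Trb, 2 of 2 Trd and 0 of 4 Trg, Trgj1 among the last. It occurred in the first 60 bases of 2.61% of GENCODE M21 transcripts. By position, the first of 3 equal spans of the Tra J array (chr14:54156133-54217901) gave 7 of 15 reads with elemental diet (46.7%, exact binomial 95% interval 21.3% to 73.4%) and 84 of 248 with saline (33.9%, 28.0% to 40.1%). A difference in position was not detectable at this depth. For Trb J the first span gave 8 of 14 reads (57.1%, 28.9% to 82.3%) and 65 of 176 (36.9%, 29.8% to 44.5%), also overlapping. These intervals cover counting error only.

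The segments of the invariant receptors were near the floor. Trav11 and Traj18, which form the alpha chain of invariant NKT cells, had 2 and 1 reads with elemental diet and 15 and 9 with saline. Of the Trav11 reads 0 and 2 were unique, 99.6% of its 75-base stretches occur in another receptor row, and its copy Trav11d had 4 and 6 reads, so the Trav11 values rest on uncertain assignment. Trav1 and Traj33, which form that of MAIT cells, had 3 and 1 reads against 28 and 3. Trav1 lay wholly below saline, Trav11, Traj18 and Traj33 overlapped, and none of the 4 was tested. Whether reads of a V and a J segment came from the same transcript cannot be told from counts per row.

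Lists of markers of other cells were counted in the fit that called 40.2% of all genes lower and 38.0% higher. Of 10 genes associated with gamma-delta T cells 9 fell and 1 did not pass, with a median log2 fold change of -1.45. Cd163l1, a scavenger receptor of gamma-delta T cells, had 138 reads against 723 and a log2 fold change of -2.10. Il1r1, the interleukin-1 receptor, had -0.44, and Blk and Ccr6, which B cells also express, had -2.64 and -2.58. Summed, this list stood at 179 to 199 CPM with elemental diet and 640 to 657 with saline. Of 9 tested NK cell genes 7 fell and 2, Gzma and Klri2, did not pass, with a median log2 fold change of -0.95. The 4 with the smallest p were Prf1 (pore-forming perforin, -3.19), Klra4 (Ly49 family receptor, -3.14), Klrk1 (activating receptor, -2.20) and Eomes (transcription factor, -3.88). Ncr1, Klrb1c and Klre1 fell less, with -0.65, -0.87 and -0.95. The list summed to 11.9 to 13.5 CPM with elemental diet and 54.6 to 61.5 with saline. All 6 B cell genes fell, from 4341 to 4479 CPM in sum with saline to 603 to 655 with elemental diet, and Cd22 had a log2 fold change of -3.05. All 6 erythroid genes rose, at 4190 to 4878 CPM in sum against 135 to 182, and Klf1, the erythroid transcription factor, had a log2 fold change of 5.79. All 6 proliferation genes rose, at 3130 to 3729 CPM in sum against 114 to 120, and Plk1, a mitotic kinase, had a log2 fold change of 4.89. Their part in the receptor results was not tested.

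Of 10 tested genes of V(D)J recombination and the pre-receptor 6 rose and 2 fell, beside 38.0% and 40.2% of all genes, so nothing is read from the count. Those that rose included Hmgb2 and Hmgb1, DNA-bending chromatin proteins, with log2 fold changes of 3.44 and 1.66, and Xrcc6 and Xrcc5, which bind broken DNA ends, with 1.85 and 0.80. Xrcc4 and Dclre1c, which act in end joining, had log2 fold changes of -0.73 and -0.28. The genes specific to lymphocyte development were at or near 0: Rag1 had no read in any library, Rag2 had 3 under elemental diet and 0 under saline, Ptcra, the pre-receptor alpha chain, had 8 and 0, and Dntt, which adds bases at the joints, had 21 and 55 and did not pass (adjusted p = 0.0678). Of the markers of thymic epithelium Foxn1 had no read, Psmb11 had 31 reads under elemental diet and 6 under saline, Aire and Prss16 fell with log2 fold changes of -2.22 and -0.81, and Ccl25 rose with 0.30. Of 8 salivary gland markers Bhlha15 and Amy1 could be tested, and both fell, with log2 fold changes of -1.78 and -0.58.

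Scaling between libraries decides the sign of the smallest differences. Without composition normalization the median log2 fold change over all tested genes moved from -0.08 to -0.39, a shift of 0.31, and Trdc moved from 0.07 to -0.24. Set against the median of all genes, Trdc lay 0.15 above it under TMM and also without normalization, Tcrg-C1 lay 0.998 above it under TMM, and Tcrg-C2 lay at -0.42. The sums of Trd and Trg lay 0.19 and 0.10 above the median under TMM, and 0.19 and 0.11 above it without normalization, while Tra and Trb lay at -2.65 and -2.64 under TMM. Subtracting the median removes a shift common to all genes, so the likeness between scalings was fixed in advance and nothing is read from it. With 40.2% of genes called lower and 38.0% higher, the median was not shown to mark unchanged genes.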

How the data were processed

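Read counts per gene were deposited by the authors, 1 file per library, as total and unique gene reads and as exon and intron reads; per the file headers, TPM was also computed by the authors. GRCh37 and GRCm38 both appear in the submitters' processing notes; aligner, counter and strand not given in the sources used here. All 226 receptor rows matched GENCODE M21 (GRCm38) in chromosome, start, end and strand, and printed sequences were read from its transcripts.

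Total gene reads of all 41325 rows were analysed with edgeR 4.0.16 in R 4.3.3: TMM scaling, filterByExpr (minimum count 10), a robust quasi-likelihood fit of elemental diet against saline on 6 libraries, and Benjamini-Hochberg adjustment over the 18303 genes tested, with calls at adjusted p under 0.05. The fit was also run on simulated counts in which few genes changed, with random sign. In these data most genes were called, so that run does not test the scaling or the calls here. Sums and ratios are means of libraries ± SD. The receptor rows and the gene lists were chosen with earlier results of these data known, so they are not independent support. The rule for naming genes took all C and D rows, and the 5 V and 3 J rows with the most reads per locus. It also took the 5 largest falls and 5 largest rises or smallest falls among tested rows of at least 1 CPM. Rows called higher and invariant receptor segments were added, and of each list the 4 smallest p and any member called against it. Not all of these are given: of the B cell, erythroid and proliferation lists only Cd22, Klf1 and Plk1 are named, and Trav4-3, Trgj2 and Trgj4 are left out. Receptor rows and coreceptors outside the rule are mostly marked, and further list members such as Ncr1 and Klrb1c are not. Alternatives were unique or exon reads, RLE, upper quartile or no normalization, no hemoglobin or immunoglobulin genes, DESeq2 1.42.0, no filter, a replicate block and leaving out each library.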

Additional observations from a re-analysis of the deposited data

How the results depend on the processing

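The statements on Trac, Trbc1, Trbc2, Tcrg-C1, Tcrg-C4 and Trbv13-2 kept their direction and their call in all alternatives run. Of the 42 receptor rows tested, 35 were called lower, where 7352 of all 18303 genes tested were. Without the filter on low reads there were 73 of 199, where 7786 of 28895 genes were called lower. Leaving out 1 library gave 34 to 45 rows, where 7023 to 7580 of 18663 to 19004 genes were called lower. Called higher were 2 rows, and 1 with unique reads, exon reads, upper quartile, no composition normalization or DESeq2. There were 3 with RLE or without the filter, and leaving out 1 library gave 1 to 3. Over all genes, those called higher ran from 5408 of 18303 without composition normalization to 7163 of 18303 with RLE. Nothing is read from these counts. The replicate numbers were not shown to pair the libraries. The correlations of same-numbered libraries were 0.12, -0.01 and 0.06, and elemental diet library 2 correlated best with another number. With the replicate block 34 receptor rows were called lower and 1 higher, where 7316 and 6925 of all 18303 genes were. The fold change of Trdc was -0.0432 on exon reads, -0.20 with upper quartile and -0.24 without composition normalization, and -0.0420 to 0.17 leaving out 1 library. Beyond the left-out libraries named in the report, Tcrg-C2 lost its call with RLE (adjusted p = 0.0520) and DESeq2 (0.0694), Trav13n-4 with DESeq2 (0.0744), and Trdv2-2 with upper quartile (0.0733), no composition normalization (0.0834) and DESeq2 (0.0627), while Tcrg-C3 gained one with RLE (0.0486). With the replicate block Tcrg-C2 (0.0564) and Trdv2-2 (0.0513) missed the threshold.

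Scaling by library totals alone moved the log2 ratios of sums to -3.03 for Tra, -3.03 for Trb, -0.20 for Trd and -0.28 for Trg, and by class to -2.45 for Tra V, -3.35 for Tra C, -2.26 for Trb V, -3.35 for Trb C, 0.0852 for Trd V, -0.24 for Trd C and -0.15 for Trg C. On unique reads the ratio was -2.93 for Tra, 0.62 for Trd and 0.81 for Trd C, V to C reads of Trd turned to -0.65, the equal-depth difference in Tra V rows was -3.16, and the inverse Simpson difference was 0.72 for Tra and -6.36 for Trb. On exon reads the ratio was -2.91 for Trb, -0.0480 for Trd, -2.39 for Tra V, -2.30 for Trb V and -0.20 for Trd V, V to C reads were 0.86 for Trb and -0.18 for Trd, Tra V rows at equal depth differed by -10.4, the Trb inverse Simpson index by -6.99, the Trbv13-2 share by 27.6 percentage points and the first span of Trb J by 29.8. For 2 alternatives added after seeing the data, V to C reads were 0.0533 for Trb without Trbv13-2 and Trbv12-2, and 1.14 for Tra with V rows that share no 75-base stretch. Leaving out 1 library, the Trd J ratio ranged from 0.32 to 2.72 and Trd J to C reads from 0.38 to 2.64, and Trb J to C reads from -0.77 to 0.37. The cause of these moves was not tested.

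Delta J, gamma V and J rows, and single Tra V rows rest on few reads, so small differences in them were not detectable at this depth.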
